A study of Sus scrofa with 12 samples.

Results

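RAB GTPases are the largest branch of the RAS superfamily of small GTP-binding proteins, and each marks the membranes of a particular compartment. In the GTP-bound form, a RAB recruits effectors that bud, move, tether and fuse vesicles. Exchange factors load GTP, GTPase-activating proteins trigger its hydrolysis, and GDP dissociation inhibitors return the lipid-anchored protein to the cytosol. In the uterus, the luminal and glandular epithelium takes up and secretes much material by these routes, and in the pig the secretion nourishes the conceptuses before and during attachment.

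The members were the protein-coding genes of the pig annotation Sscrofa11.1 whose symbol is RAB followed by a number and at most a paralogue letter. There were 59 of them among 19550 protein-coding genes on the assembled chromosomes. A further 9 genes with symbols of this kind, such as RAB11FIP1 and RAB3GAP1, encode effectors or regulators and were not counted as members. The tissue was the endometrium (uterine lining) of pigs on day 15 or day 12 of pregnancy. For each day, 3 chromatin immunoprecipitation (ChIP) libraries were made with a C/EBP-β antibody; C/EBP-β is a transcription factor of the basic leucine zipper class. No allele, treatment or strain is given in the labels, nor whether replicates came from separate animals. The input samples were not analysed here. Each library is a list of peak summits, the single bases at which its peaks were highest, each with a score. In whole tissue, fewer cells of a type and weaker binding in each cell cannot be told apart. Summits do not measure expression, so the tissue label could not be checked by marker levels. Of 7 epithelial marker genes, 4 had a summit near an end in at least 2 of 3 libraries on day 15 and 4 on day 12, and of 8 immune marker genes 3 did on day 15 and 2 on day 12. Of 8 stromal marker genes 7 did on day 15 and 4 on day 12, and of 5 smooth muscle marker genes 4 on day 15 and 3 on day 12. Endothelial markers (6 genes) and neuronal markers (7 genes) had 1 each on either day. Over all protein-coding genes the shares by this rule were 46.3% on day 15 and 38.1% on day 12. The lists are small, and these counts do not check the tissue.

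The libraries differed widely in length and in processing. On the chromosomes there were 70152, 16529 and 11960 summits in day 15 replicates 1 to 3 and 6557, 33294 and 57728 in day 12 replicates 1 to 3. Read depth is unknown. The peak names form 2 processing sets. Set A, with a directory path in the names, holds day 15 replicates 2 and 3 and day 12 replicate 1. Set B holds day 15 replicate 1 and day 12 replicates 2 and 3. Set A thus holds the 3 shortest lists and set B the 3 longest, so processing set and list length cannot be told apart. Peaks of day 15 replicates 2 and 3 share 1 sample code in their names, and the protein is missing from the sample code of day 15 replicate 3 and of day 12 replicate 1. Over the genome, 52 summits of day 15 replicates 2 and 3 were at the same base, of which 0 were at RAB genes.

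Most RAB genes had a summit close to an end of the gene, and more of them did than protein-coding genes at large in every library. A summit counted as near when it lay within 5 kb of either end, since the annotation gives no strand and the transcription start could not be told from the other end. Of the 59 RAB genes, 53, 39 and 34 had a near summit in day 15 replicates 1 to 3, and 16, 35 and 47 in day 12 replicates 1 to 3. These are 89.8%, 66.1% and 57.6% on day 15 and 27.1%, 59.3% and 79.7% on day 12. All protein-coding genes had 64.8%, 44.6% and 37.6% on day 15 and 17.2%, 38.4% and 54.1% on day 12. The share of RAB genes was thus above that of all genes by between 9.91 and 25.5 percentage points, the smallest gap being in day 12 replicate 1, the shortest list. All genes include genes that endometrium does not use, and expression was not measured.

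**Figure D1:**
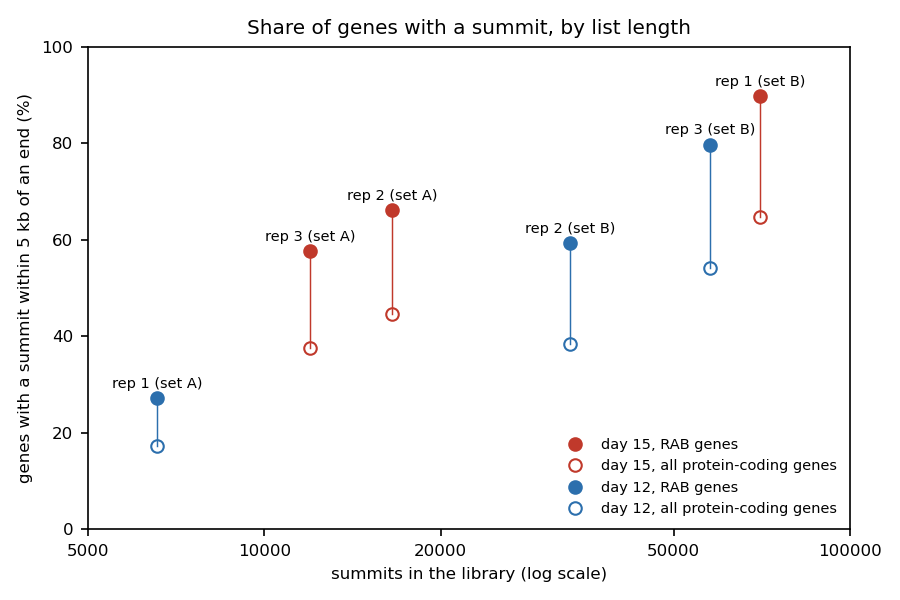
Share of genes whose ends have a summit within 5 kb (y axis, %) against the number of summits in the library (x axis, log scale). Filled points are the 59 RAB genes and open points all 19550 protein-coding genes of the same library; red is day 15 and blue day 12. The filled point lies above the open one in each of the 6 libraries, and the shares of both days overlap.

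Between days, the share of RAB genes with a near summit averaged 71.2% ± 16.7 on day 15 and 55.4% ± 26.5 on day 12 (SD, n = 3 each). The difference of 15.8 percentage points was smaller than either spread between replicates, and all genes differed by 12.4 points (49.0% ± 14.1 on day 15 and 36.6% ± 18.5 on day 12). Within set A the RAB share was 34.7 points higher on day 15, where all genes were 23.9 points higher. Within set B it was 20.3 points higher on day 15, where all genes were 18.5 points higher. In each set, every day 15 list was longer than every day 12 list. Day and list length therefore cannot be told apart within the sets. With 3 libraries against 3, a two-sided exact permutation test cannot give a p below 0.1, and no p is given for the RAB genes as a group because they were chosen with results known.

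Counting a gene as bound on a day when at least 2 of 3 libraries had a near summit, 39 RAB genes (66.1%) were bound on day 15, against 46.3% of all protein-coding genes. On day 12, 36 (61.0%) were bound, against 38.1% of all. Both days shared 30 RAB genes (50.8%, against 30.5%). Another 9 were bound on day 15 alone by this rule (15.3%, against 15.8%) and 6 on day 12 alone (10.2%, against 7.61%). A near summit in all 6 libraries was found at 14 RAB genes (23.7%), against 13.1% of all genes. Only 5 RAB genes had none in any library (8.47%, against 29.5%). The median RAB gene had a near summit in 4 libraries and the median protein-coding gene in 3. Another protein-coding gene lay within 10 kb of 42 members (71.2%, against 67.6% of all genes), and a summit can then count for both. Among the 17 members without such a neighbour, 9 were bound on day 15 (52.9%) and 8 on day 12 (47.1%), against 32.0% on day 15 and 30.5% on day 12 of the 6340 protein-coding genes without one. Leaving out day 12 replicate 2 or day 12 replicate 3, with a summit then required in both day 12 libraries that remain, made the day 12 number 15 in each case. Without day 12 replicate 1, the number of RAB genes with a near summit in all libraries became 26. Counts with a library left out stand here without the shares of all genes.

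**Figure D2:**
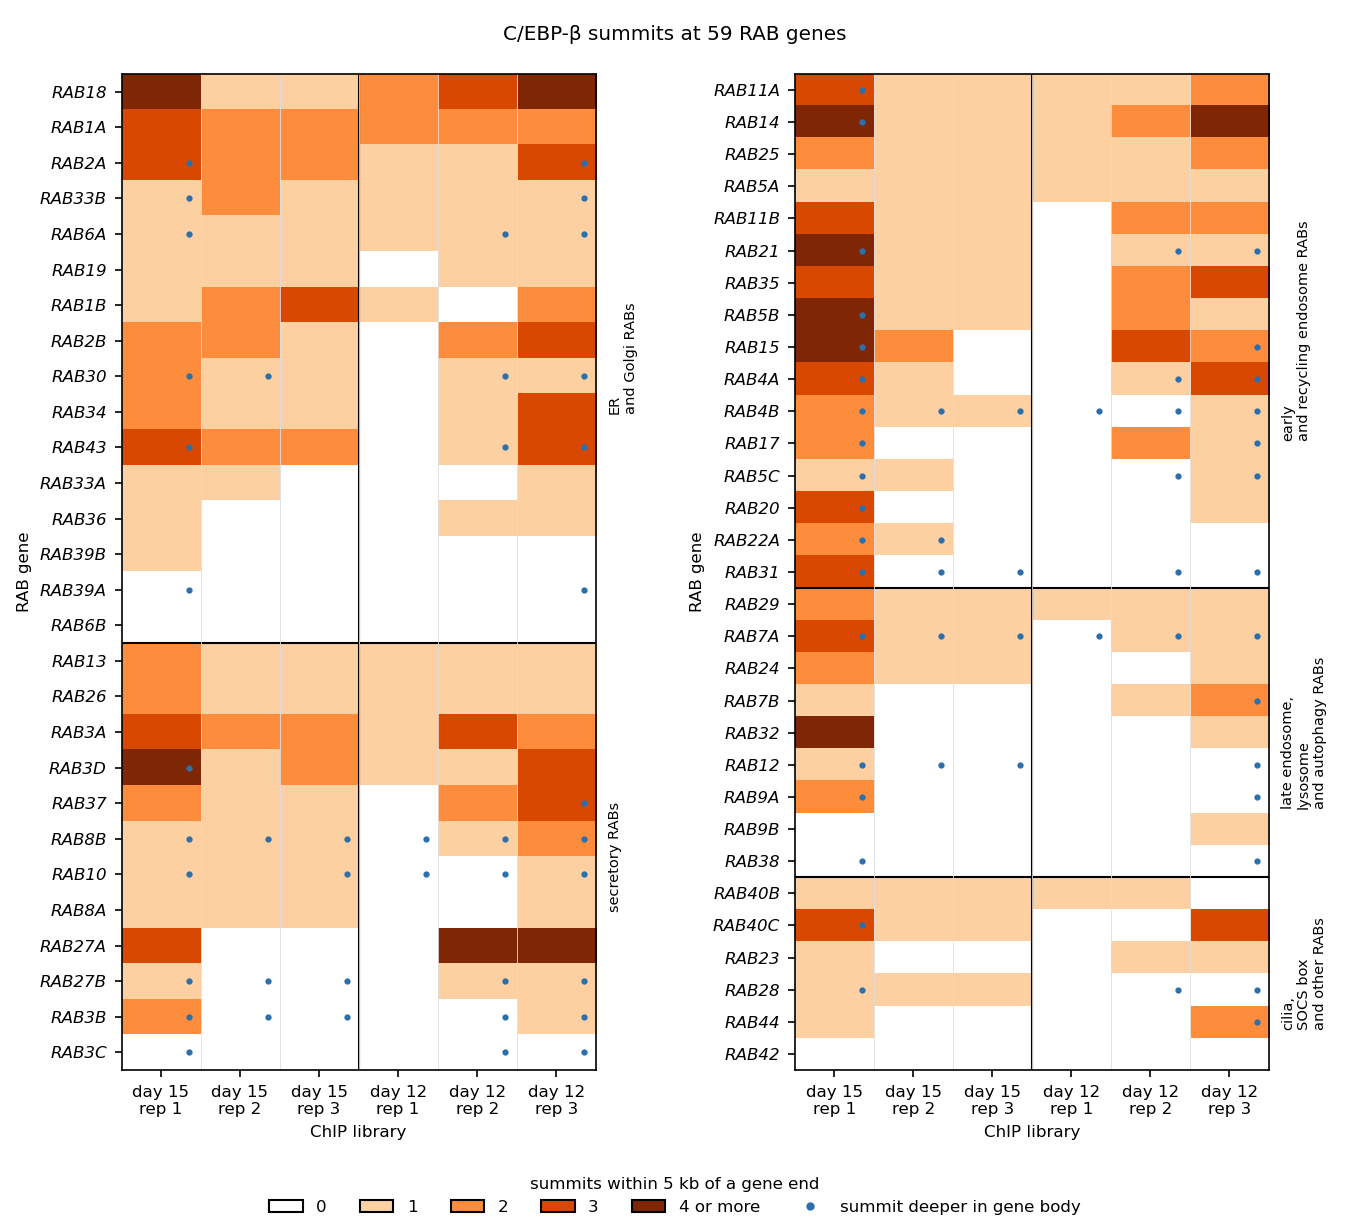
Number of summits within 5 kb of a gene end (colour) at each of the 59 RAB genes (rows, grouped by compartment) in each library (columns, day 15 left of day 12). A blue dot marks a summit deeper in the gene body. The 14 genes with colour in all 6 columns stand at the top of the groups, and RAB6B and RAB42 have neither colour nor dots.

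Of the 16 RABs of the endoplasmic reticulum (ER) and Golgi, day 15 had 12 bound and day 12 also had 12 (75.0% each). For this and the other groups, the shares of all genes were 46.3% on day 15 and 38.1% on day 12. Of the 16, 5 had a near summit in all 6 libraries, beside 13.1% of all genes. RAB1A, which directs transport between the ER and the Golgi, had 3, 2 and 2 near summits in day 15 replicates 1 to 3 and 2, 2 and 2 in day 12 replicates 1 to 3. Its summits formed a pair of sites at the lower-coordinate end that every library shared. The outer site lay at chromosome 3, 76837131 to 76837332, which is 341 to 542 bp outside the gene. The inner site lay at 76838968 to 76839002, inside the gene, and its 6 summits fell within 34 bp of each other. RAB1A was the only member with more than 1 site shared by all 6 libraries. Its paralogue RAB1B had 1, 2 and 3 near summits on day 15 and 1, 0 and 2 on day 12.

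RAB6A, a regulator of transport from and back to the Golgi, had 1 near summit in each of the 6 libraries, all within 9 to 52 bp of its higher-coordinate end (chromosome 9, 8199203 to 8199264). They ranked at percentiles 76.6 to 96.3 of the scores of their own lists, the score being the authors' own. Its paralogue RAB6B, known from human and mouse as a mainly neuronal form, had 0 summits in the gene body and 5 kb either side in all 6 libraries. RAB18, which acts at the ER and on lipid droplets, had 5, 1 and 1 near summits on day 15 and 2, 3 and 5 on day 12. The site shared by all libraries covered its lower-coordinate end (chromosome 10, 38970350 to 38970511), and the highest percentile there was 98.4 in day 15 replicate 1. A further site, 4038 to 4116 bp beyond the other end, was present in 1 day 15 library and in 3 day 12 libraries. RAB2A, also of the ER and Golgi route, had 3, 2 and 2 near summits on day 15 and 1, 1 and 3 on day 12. Its leading site, inside the gene 1417 to 1452 bp from the higher-coordinate end, was present in 2 day 15 libraries and in 3 day 12 libraries, up to percentile 98.9. RAB33B, which takes part in autophagosome formation, had a shared site as well (62.0 as the mean percentile over the 6 libraries). At the other extreme, RAB39A had 0 near summits in all 6 libraries, and RAB39B had 1 near summit, in day 15 replicate 1.

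Among the 12 RABs of secretion, day 15 had 8 bound and day 12 also had 8 (66.7% each, against 46.3% and 38.1% of all genes). RAB26, found on secretory granules, had 2, 1 and 1 near summits on day 15 and 1, 1 and 1 on day 12. Its shared site had the highest mean percentile of best near summits of all members with a near summit in all 6 libraries (86.7), but it lay 3265 to 3407 bp outside the gene (chromosome 3, 39828574 to 39828716) and also within 5 kb of an end of TRAF7. The gene to which it belongs cannot be told from these lists. RAB3A, best known for calcium-triggered exocytosis, had 3, 2 and 2 near summits on day 15 and 1, 3 and 2 on day 12. Its shared site over its lower-coordinate end also lay within 5 kb of an end of PDE4C. RAB3D, the granule form of exocrine glands, had 4, 1 and 2 near summits on day 15 and 1, 1 and 3 on day 12, yet no single site was common to all 6 libraries. The other members of this family stood apart, since RAB3B had a near summit in 1 library of each day and RAB3C in 0 of 6. RAB13, a RAB of epithelial junctions, had 2, 1 and 1 on day 15 and 1, 1 and 1 on day 12, at a site that also lay near ends of JTB and CREB3L4.

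RAB8A, RAB8B and RAB10 carry cargo from the Golgi and recycling endosomes to the plasma membrane. Of the 15 sites shared by all libraries, one in the body of RAB8B had the highest mean percentile (95.5). At chromosome 1, 108831399 to 108831453, 8.77 to 8.82 kb inside the gene, all 6 libraries had a summit, between percentiles 92.5 and 98.1 and within 54 bp of each other. RAB8B also had a site within 57 to 87 bp of its higher-coordinate end, in 3 day 15 libraries and in 2 day 12 libraries. The body of the gene held 5 more sites that were present in day 15 replicate 1 and day 12 replicates 2 and 3, the 3 libraries of set B, and in none of set A. In all, RAB8B had 8, 2 and 2 summits in the gene body and 5 kb either side on day 15 and 1, 9 and 13 on day 12. RAB10 had 1, 1 and 1 near summits on day 15 and 0, 0 and 1 on day 12, and deeper in its body a site 5997 to 6045 bp from the end was present in 2 day 15 libraries and in 3 day 12 libraries. RAB8A had 1, 1 and 1 on day 15 and 0, 0 and 1 on day 12, all at 27 to 287 bp from the same end. The RAB8A site also lay within 5 kb of an end of TPM4.

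RAB27A and RAB27B, which dock secretory granules and multivesicular endosomes and are known for exosome release, had near summits in set B alone. RAB27A had 3, 0 and 0 near summits on day 15 and 0, 4 and 5 on day 12. RAB27B had 1, 0 and 0 on day 15 and 0, 1 and 1 on day 12. By the count of 2 of 3 libraries both were bound on day 12 and not on day 15, but every library with a near summit belonged to set B, and 3 sites of RAB27A were present in each of the 3. Deeper in its body, RAB27B also had summits in set A, with a site 42.4 kb from its higher-coordinate end in all 3 day 15 libraries and in 1 day 12 library. A near summit in all libraries of set B and none of set A was found at 6 RAB genes (RAB7B, RAB17, RAB23, RAB27A, RAB27B and RAB36), 10.2% against 5.87% of all genes, and the reverse at 0, against 0.0205%. Set B holds 2 day 12 libraries and 1 day 15 library, so any gene with this pattern counts as bound on day 12 alone. That its days do not differ within a set follows from the same rule. No RAB gene outside these 6 was bound on day 12 alone. The parts of processing set, list length and day in this were not tested.

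**Figure D3:**
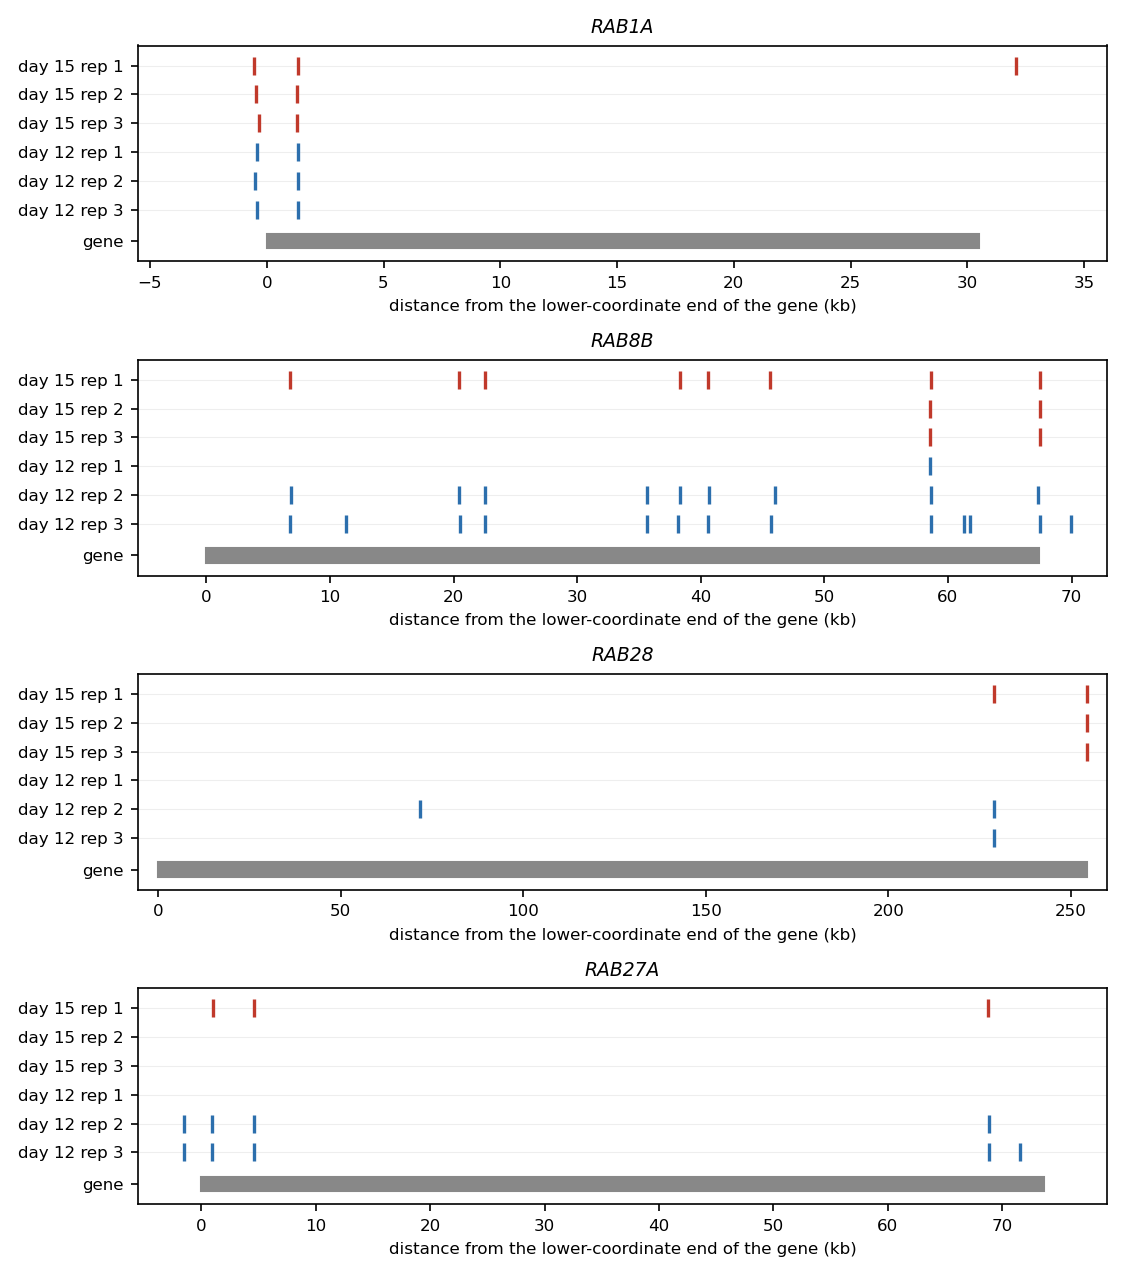
Positions of all summits in the gene body and 5 kb either side (x axis, kb from the lower-coordinate end) in each library (rows, day 15 in red above day 12 in blue) at 4 RAB genes; the grey bar is the gene. RAB1A has a pair of sites in all 6 libraries, RAB8B 1 deep site in all 6, RAB28 an end site in the 3 day 15 libraries, and RAB27A summits in the set B libraries alone.

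Of the 16 RABs of early and recycling endosomes, day 15 had 13 bound (81.2%, against 46.3% of all genes). Day 12 had 11 (68.8%, against 38.1%). Among them, 4 had a near summit in all 6 libraries and none lacked one in every library. RAB11A, the main RAB of recycling endosomes, had 3, 1 and 1 near summits on day 15 and 1, 1 and 2 on day 12, with a shared site 339 to 448 bp outside the gene (chromosome 1, 163857806 to 163857915). RAB14 had 4, 1 and 1 on day 15 and 1, 2 and 4 on day 12, sharing a site within 18 to 85 bp of its higher-coordinate end. RAB25, the epithelial relative of RAB11A, had 2, 1 and 1 on day 15 and 1, 1 and 2 on day 12. Its shared site lay 4627 to 4723 bp outside the gene (chromosome 4, 93975369 to 93975465) and also within 5 kb of ends of LAMTOR2 and UBQLN4. Among the early endosome RABs, RAB5A had 1 near summit in each of the 6 libraries, RAB5B lacked one in day 12 replicate 1, and RAB5C had one in 2 day 15 libraries and in 1 day 12 library. RAB4B held a shared site deep in its body, 9.15 to 9.51 kb from an end, which lay within 5 kb of an end of EGLN2. RAB31 had a near summit in day 15 replicate 1 alone, although deeper summits were present in 3 day 15 libraries and in 2 day 12 libraries.

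Of the 9 RABs of late endosomes, lysosomes and autophagy, day 15 had 3 bound and day 12 also had 3. The share of 33.3% on each day was below the 46.3% of all genes on day 15 and the 38.1% on day 12. The group is small, and RAB33B was counted with the ER and Golgi RABs. With lists cut to equal length (described below), 3 of the 9 were bound on day 15 and 1 on day 12. All genes then had 20.3% on day 15 and 9.68% on day 12. The lower share was thus not seen for these 9 RABs at equal list length. RAB29, which is recruited to stressed lysosomes, was the one of them with a near summit in all 6 libraries: 2, 1 and 1 on day 15 and 1, 1 and 1 on day 12, within 24 to 73 bp of its higher-coordinate end at the shared site. In day 12 replicate 1 that summit ranked at percentile 0.7 of its list, whereas the other 5 libraries had it between 63.2 and 91.1. RAB7A, the RAB of late endosomes and lysosomes, had 3, 1 and 1 near summits on day 15 and 0, 1 and 1 on day 12. Of these, 5 formed a site 16 to 130 bp from its higher-coordinate end, in 3 day 15 libraries and in 2 day 12 libraries, and the others lay more than 4 kb beyond an end, in day 15 replicate 1. A site 34.0 to 34.2 kb inside RAB7A was present in the same numbers of libraries. RAB7B had 1, 0 and 0 near summits on day 15 and 0, 1 and 2 on day 12. RAB9A and RAB9B, of transport from late endosomes to the Golgi, had a near summit in 1 library each. Both are among 4 X-linked members, of which 1 was bound on day 15 and 0 on day 12, against 25.7% and 16.5% of X-linked protein-coding genes. The remaining 6 members (cilia, SOCS box and others) had 3 bound on day 15 (50.0%) and 2 on day 12 (33.3%), near the shares of all genes. RAB42 had 0 summits in its body and 5 kb either side in all 6 libraries.

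Paralogues with the same number ranged from alike to opposite. The 59 members include 14 such families with 31 genes. In 4 families the members differed by at least 3 libraries in the number with a near summit: RAB3 and RAB6, with a gap of 6 libraries each, and RAB5 and RAB33, with a gap of 3. In 3 families, RAB4, RAB9 and RAB27, the numbers were equal.

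Few RAB genes separated the days, and all that did were on the side of day 15. A near summit in every day 15 library and no day 12 library was found at 1 RAB gene (1.69%, against 2.83% of all genes), and the opposite at 0, against 0.0307%. The gene was RAB28, a farnesylated RAB needed for photoreceptor cilia in human and mouse, with 1, 1 and 1 near summits on day 15 and 0, 0 and 0 on day 12. They lay 73 to 119 bp outside its higher-coordinate end (chromosome 8, 9125326 to 9125372), at percentiles 17.4 to 46.0. A deeper summit, 25.6 kb from that end, was present in day 15 replicate 1 and in day 12 replicates 2 and 3. Without day 12 replicate 3, 6 RAB genes had this pattern, and without day 15 replicate 3, 2 had it. Shares of all genes are not set beside these counts, so they give no contrast with the background.

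At least 2 more libraries with a near summit on day 15 were found at 7 RAB genes (11.9%, against 11.8% of all genes), and at least 2 more on day 12 at 0, against 1.58%. Beside RAB28, RAB8A and RAB10 these were RAB24, RAB40C, RAB4B and RAB22A. RAB24, an atypical RAB of autophagy, had 2, 1 and 1 near summits on day 15 and 0, 0 and 1 on day 12. RAB40C, which recruits a ubiquitin ligase through its SOCS box, had 3, 1 and 1 on day 15 and 0, 0 and 3 on day 12. RAB4B, of fast recycling, had 2, 1 and 1 on day 15 and 0, 0 and 1 on day 12. RAB22A, an early endosome RAB, had 2, 1 and 0 on day 15 and 0, 0 and 0 on day 12. For RAB8A, RAB10, RAB24, RAB40C and RAB4B, the day 12 library with a summit was replicate 3, the longest list of that day. The share of RAB genes with this pattern was that of all genes.

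At RAB genes, the few sites that separated the days lay within 1 kb of a gene end. Neighbouring summits, no more than 200 bp apart, were merged into sites, of which 252 lay at RAB genes among 99058 in all. All day 15 libraries and no day 12 library had a summit at 6 RAB sites (2.38%, against 0.900% of all sites), and the opposite at 0, against 0.139%. The 6 sites belonged to RAB4B, RAB21, RAB24, RAB28, RAB34 and RAB43, and each lay within 1 kb of an end. Of all 252 RAB sites, 79 lay within 1 kb of an end. Distances of such sites over the genome are not given here, so no contrast with the background is drawn. In day 15 replicate 1, the day 15 library of set B, the 6 sites ranked low. Their percentiles there were 3.9 (RAB21), 9.1 (RAB43), 15.6 (RAB24), 17.4 (RAB28), 32.6 (RAB34) and 40.0 (RAB4B). RAB21, which moves integrins into endosomes, had its site 15 to 46 bp from its lower-coordinate end. Day 12 replicates 2 and 3 had a summit 1482 and 1536 bp from that end. RAB43 had its site 586 to 738 bp from its higher-coordinate end, and day 12 replicate 3 had summits 178 and 1090 bp from that end. Both genes counted as bound on day 12. RAB24 had its site 34 to 137 bp from its lower-coordinate end, also within 5 kb of ends of PRELID1 and NSD1. The RAB4B site also lay within 5 kb of an end of MIA. RAB34, a RAB of cilium formation, had its day 15 site 781 to 1045 bp beyond its higher-coordinate end, also within 5 kb of ends of RPL23A and TLCD1, while day 12 replicates 2 and 3 had a summit 437 to 471 bp from the same end. Counting only summits within 1 kb of an end, 36 RAB genes (61.0%) were bound on day 15, against 36.7% of all genes, and 23 (39.0%) on day 12, against 21.2%. By that distance 5 RAB genes, RAB4B, RAB10, RAB21, RAB24 and RAB28, had a summit in every day 15 library and no day 12 library (8.47%, against 3.90%), and 0 had the opposite, against 0.00512%. All 6 libraries had a summit within 1 kb at 9 RAB genes (15.3%, against 7.59%).

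Compared within processing sets, the 2 sets gave different numbers. In set A, 18 RAB genes had a near summit in both day 15 libraries and none in the day 12 library (30.5%, against 19.4% of all genes), and 0 had the reverse, against 0.824%. The day 12 library of set A is the shortest list of all, and the day 15 library of set B is the longest. In set B, 6 RAB genes had a near summit in the day 15 library and none in either day 12 library (10.2%, against 12.5%), and 0 had the reverse, against 1.05%. The 6 were RAB9A, RAB12, RAB22A, RAB28, RAB31 and RAB39B, and RAB28 was the 1 gene found in both sets.

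The placement of summits moved with the library more than with the day. Of the near summits at RAB genes, 34.8%, 68.1% and 70.7% lay within 500 bp of the end in day 15 replicates 1 to 3 and 50.0%, 36.5% and 30.2% in day 12 replicates 1 to 3. The same shares over all near summits were 38.2%, 63.5% and 67.8% on day 15 and 56.1%, 32.1% and 33.3% on day 12. The 3 libraries of set A, which are the 3 shortest lists, had the 3 highest shares in both comparisons. Set A also holds 2 of the day 15 libraries. The part of the processing set, or of list length, in the day 15 sites at gene ends was not tested. Sites in all 3 libraries of set B and none of set A numbered 37 at 24 RAB genes (14.7% of RAB sites, against 12.8% of all sites), and 20 of them lay deeper than 5 kb in the gene body. The 15 sites shared by all 6 libraries (5.95%, against 2.73%) lay at 14 RAB genes, 13 within 5 kb of an end and 2 deeper, and 5 of the 15 were also within 5 kb of an end of another gene.

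**Figure D4:**
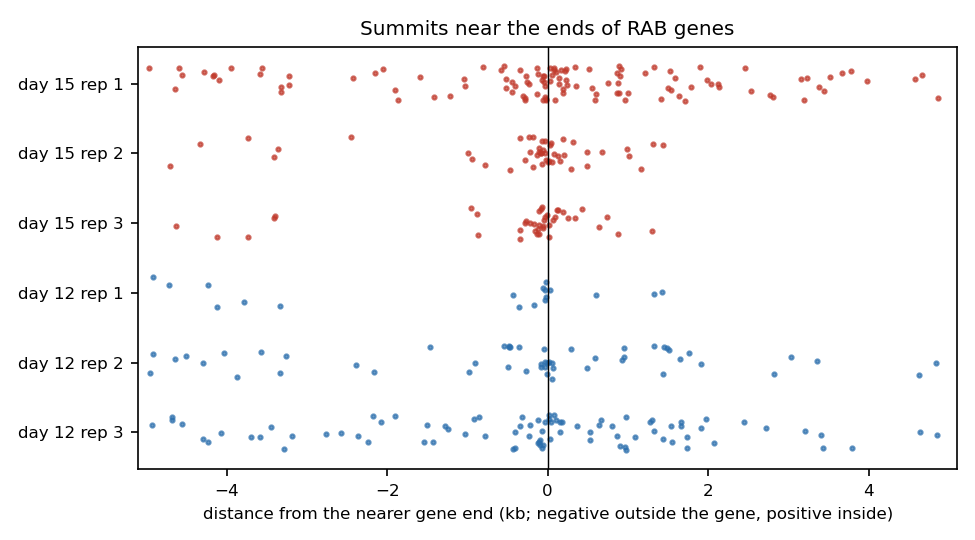
Distance of each near summit from the nearer end of its RAB gene (x axis, kb; negative outside and positive inside the gene) in each library (rows, day 15 in red above day 12 in blue); the vertical scatter within a row has no meaning. In day 15 replicates 2 and 3, 68.1% and 70.7% of the summits lie within 500 bp of the end, and in day 12 replicates 2 and 3, 36.5% and 30.2%.

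At 35 RAB genes at least 4 libraries had a near summit (59.3%, against 37.3% of all genes). At 21 of the 35 (60.0%, against 50.1% of the 7287 protein-coding genes of this kind), all of these summits were at the same end of the gene, and at 3 RAB genes both ends had summits in at least 4 libraries. Gene bodies deeper than 5 kb from both ends had a summit in at least 2 of 3 libraries at 10 RAB genes on day 15 (16.9%, against 13.4% of all genes) and at 15 on day 12 (25.4%, against 24.0%), shares near the background, and in all 6 libraries at 3 (5.08%, against 4.68%). The body and 5 kb either side held no summit in any library at 2 RAB genes (3.39%, against 22.4%). More summits in each day 15 than in each day 12 library were counted there for 0 RAB genes, against 3.22% of all genes, and more in each day 12 than in each day 15 library for 0, against 0.0614%. Compared only with libraries of the same processing set, 13 RAB genes had more summits in each day 15 library (22.0%, against 14.6%). In both sets the day 15 lists were longer than the day 12 lists, and list length was not taken out of this count.

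With lists of equal length, the 6557 highest-scoring summits of each library, 23 RAB genes (39.0%) were bound on day 15, against 20.3% of all genes, and 10 (16.9%) on day 12, against 9.68%. Only 2 had a near summit in all 6 libraries, RAB1A and RAB18 (3.39%, against 3.53%). At least 2 more libraries on day 15 were then found at 10 RAB genes (16.9%, against 7.41%): RAB2B, RAB5B, RAB7A, RAB8A, RAB10, RAB11A, RAB11B, RAB21, RAB24 and RAB40C. None had at least 2 more on day 12, against 1.76%. RAB8A, RAB10, RAB24 and RAB40C have this difference both with the whole and with the equal lists. At all of the 10 genes but RAB11A, day 15 replicate 1 had no near summit left in its equal list. For those genes the difference rested on day 15 replicates 2 and 3, both of set A. Their best near summits in day 15 replicate 1 ranked from percentile 0.2 (RAB8A) to 88.6 (RAB21) of the whole list, against 92.9 for RAB11A. With equal lists, RAB28 had a near summit in 1 day 15 library and 0 day 12 libraries.

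Genes that run the RAB cycle were counted by class from fixed lists. Of 8 genes for GDP dissociation inhibitors, RAB escort proteins, prenylation and related factors, day 15 had 7 bound and day 12 had 5. GDI2 and CHML had a near summit in all 6 libraries. Among the 38 exchange factor genes, day 15 had 26 bound (68.4%) and day 12 had 20 (52.6%). Among the 34 GTPase-activating protein genes, day 15 had 25 bound (73.5%) and day 12 had 18 (52.9%). Among the 48 effector genes, day 15 had 23 bound (47.9%) and day 12 had 25 (52.1%). The day 15 share of effectors was near that of all genes. EEA1 and RABEP1, effectors of RAB5, had a near summit in all 6 libraries, as did APPL1, PLEKHM1 and RAB11FIP5. A near summit in every day 15 library and no day 12 library was found at 3 of the 38 exchange factor genes (DENND1A, TRAPPC1 and HPS4). The same pattern was found at 3 of the 34 GTPase-activating protein genes (RAB3GAP2, TBC1D10C and TBC1D22A) and 2 of the 48 effector genes (MICAL1 and RABEP2). Of all genes 2.83% had it, and no contrast is drawn from such small counts. Among effectors of RAB27 proteins, MYRIP and RPH3AL had a near summit in 1 day 15 library and in 3 day 12 libraries, SYTL2 in 3 day 15 and 2 day 12 libraries, SYTL1 and MLPH in 1 library of each day, SYTL5 in 1 day 12 library, and SYTL3 and SYTL4 in 0 of 6.

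Of other small GTPases, the ARF, SAR and RAS genes were counted in the same way, beside 46.3% of all genes on day 15 and 38.1% on day 12. The ARF and SAR family, with 27 genes, had 18 bound on day 15 (66.7%) and 12 on day 12 (44.4%). The RAS family, with 32 genes, had 19 bound on day 15 (59.4%) and 14 on day 12 (43.8%). The RAB shares of 66.1% on day 15 and 61.0% on day 12 stood between those of these families on day 15 and above both on day 12, and the differences between families were not tested.

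**Figure D5:**
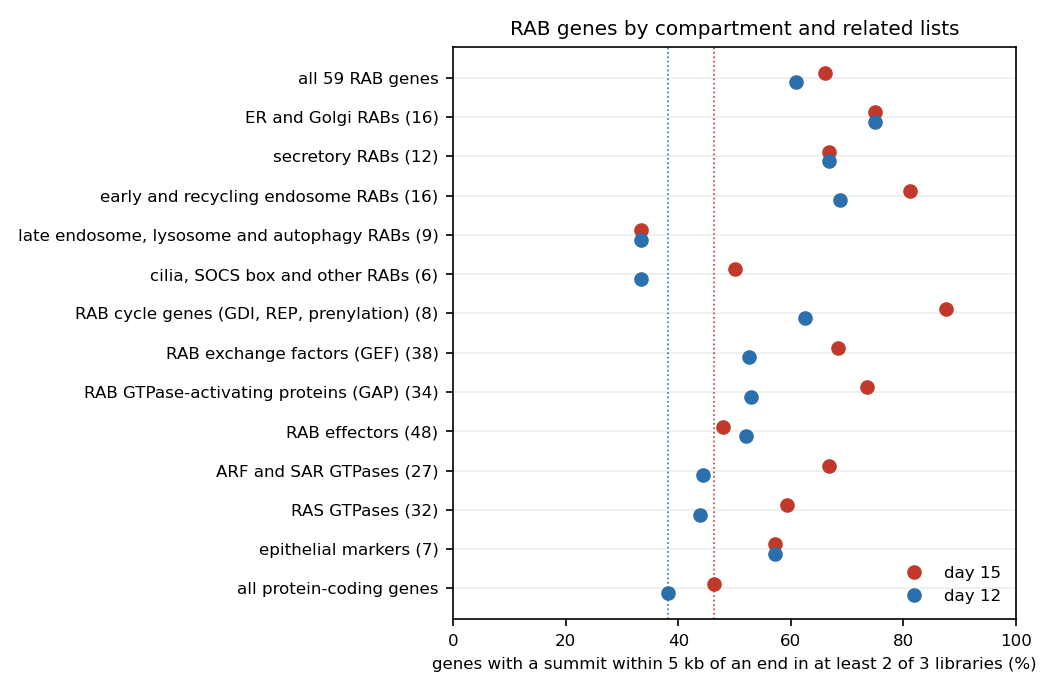
Share of genes bound near an end in at least 2 of 3 libraries (x axis, %) for all RAB genes, their compartment groups, genes of the RAB cycle and other small GTPases (rows, number of genes in brackets); red is day 15 and blue day 12. Dotted lines mark all protein-coding genes, 46.3% on day 15 and 38.1% on day 12. Late endosome RABs lie below both lines at 33.3%, a contrast not seen with lists of equal length.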

How the data were processed

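ChIP DNA of 6 libraries, 3 of day 15 and 3 of day 12, was analysed. The submitters' processing notes name MACS2 2.1.2, Bowtie2 2.3.5.1 and SAMtools 1.9, and the build susScr11. How the peak threshold, the input and duplicates were handled is not given in the sources used here. The deposited files hold summits of 1 bp. The authors' score is a −log10 p-value or q-value (it is not stated which), used only to rank or filter within a list. Its lowest value was 2.02 in day 12 replicate 1 and 1.31 to 1.37 in the others. Without read counts, depth is unknown and no counting interval is given.

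Summits on 18 autosomes, X and Y were set against gene starts and ends in the RefSeq table of Sscrofa11.1 (Python 3.11.15, pandas 2.3.3), with coordinates counted from 1. Strand and sequence were not used here, so planned promoter sequences and motifs were not run. The counting was tested on simulated summits. The members, lists and rules were chosen with earlier results of these data known. The naming rule gives values per library for members that differ by at least 2 libraries between days, for the 10 members with the highest mean percentile among those with a near summit in all 6 libraries, and for members without summits. Other genes were named after their values were seen. Some listed genes are not reported here, and the counts of the lists leave them out. Alternatives are in the closing section.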

Additional observations from a re-analysis of the deposited data

How the results depend on the processing

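The 6 counts of RAB genes were recomputed under other settings. Of these, 71 values stayed within 1.5 times the reported count and 30 did not. With a score of at least 5, 7 RAB genes had a near summit in all 6 libraries (11.9%, against 8.45% of all genes). At that score 3 had one in all day 15 and no day 12 libraries (5.08%, against 3.16%). More summits in each day 15 than in each day 12 library were found at 2. With a score of at least 10, 21 were bound on day 15 and 11 on day 12, 3 had a near summit in all 6 libraries and 1 had more summits in each day 15 library. With equal lists, 23 were bound on day 15 (39.0%, against 20.3%) and 10 on day 12 (16.9%, against 9.68%). Then 2 were in all 6 libraries (3.39%, against 3.53%) and 0 in day 15 libraries alone. Within 1 kb of an end, 23 were bound on day 12 (39.0%, against 21.2%) and 9 were in all 6 libraries (15.3%, against 7.59%). In day 15 libraries alone there were 5 (8.47%, against 3.90%), and 2 had more summits in each day 15 library. Counting the gene body and 5 kb either side, 0 were in day 15 libraries alone. With 3 of 3 libraries required, 14 were bound on day 12. With the 9 RAB-named genes that are not GTPases, 2 were in day 15 libraries alone and 1 had more summits in each day 15 library. Of the 17 members with no other gene within 10 kb, 9 were bound on day 15 and 8 on day 12, and 5 were in all 6 libraries. The 9 are 52.9% and the 8 are 47.1%, against 32.0% and 30.5% of all genes without such a neighbour. Within processing sets, 13 had more summits on day 15 in every pair (14.6% of all genes), but in both sets the day 15 lists were longer. A score of at least 2, chosen after seeing the data, kept all 6 counts within 1.5 times. Where no share of all genes stands beside a count in this section, it says nothing about RAB genes against the background.

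Leaving out each library in turn, 34 to 39 RAB genes were bound on day 15 and 15 to 36 on day 12, 14 to 26 were in all libraries, 1 to 6 in day 15 libraries alone, and 0 to 6 had more summits in each day 15 library. Leaving out day 12 replicate 2 or 3 gave the 15, day 12 replicate 1 the 26, and day 12 replicate 3 the 6 in both cases. Where fewer summits or genes, or a stricter rule, do not by construction lower a count, the cause was not tested.

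With the replicate block, 0 RAB genes had more summits on day 15 for each replicate number, as without it. Deviations from the day means over 19550 genes correlated at -0.66, -0.15 and -0.51 for replicates 1, 2 and 3. Between libraries of different numbers the correlations ranged from -0.38 to 0.59. List length differs between the libraries and was not taken out, so whether the numbers pair the libraries cannot be told. For each of the 59 members, the share of day 15 minus that of day 12 libraries was also recomputed, and 7 of the values turned sign. RAB27B became 0.33 with a score of at least 5, with a score of at least 10 and with the gene body and 5 kb either side, and RAB27A 0.33 within 10 kb. RAB35 became -0.33 with a score of at least 10, RAB1B -0.33 with equal lists and RAB12 -0.33 within 10 kb. RAB2A, at 0 as reported, was -0.33 with equal lists and 0.67 within 1 kb. Unknown depth limits every absence of a summit.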
